A study of Mus musculus with 20 samples.

Results

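The genes described here encode the proteins of the cytoplasmic ribosome, the machine that translates messenger RNA. They were chosen by name, not by their values: probe sets whose only gene symbol in the platform annotation begins with Rpl (large subunit) or Rps (small subunit), followed directly by a number or by the letters that mark the stalk proteins or Rpsa. The S6 kinases (6 genes, Rps6k), mitochondrial ribosomal proteins and 1 pseudogene were left out. This gave 41 of the 17771 genes in the table, each with 1 probe set. Of these, 20 carry an Rpl name and 20 an Rps name of a ribosomal protein or of a paralogue of one, and Rps19bp1 encodes a protein that binds Rps19 and regulates the deacetylase Sirt1, so it is no ribosomal protein. The rule found 6 paralogues with their own symbols, namely Rpl22l1, Rpl39l, Rpl3l, Rpl7l1, Rps27l and Rps4l. Of the 41 genes, 34 were bright enough to be tested, and the other 7 are given by level below. Another 4 probe sets carried such a name among several symbols and were not used, and the stalk gene Rplp1, Rpsa and Rpl5 are not analysed here.

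The RNA came from eosinophils, the granulocytes of allergic inflammation, grown from the bone marrow of mice with the phosphatase gene Dusp5 (Dusp5+/+, wild type) or without it (Dusp5-/-, knockout). Dusp5 encodes a nuclear phosphatase of the MAP kinases ERK1 and ERK2, and IL-33 is an alarm cytokine released by damaged cells. After 12 days in culture the cells were kept in medium alone or stimulated for 4 hours with IL-33 at 25 ng/ml, which gave 4 groups of 5 arrays, 1 array per mouse and condition from 5 mice of each genotype. The titles of the 10 IL-33 samples do not name the cytokine, so their group rests on the treatment given in their characteristics. The labels give neither the age of the mice nor the part of Dusp5 that was deleted, and they name Dusp5-/- mice with no restriction to a cell type. Values are log2 expression values as deposited, differences are IL-33 minus untreated or knockout minus wild type on that scale, and errors are the SD of 5 arrays for levels and the SE of the limma fit for differences.

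Of the whole series, these facts bear on the ribosomal genes. Array medians lay between 4.25 and 4.32, arrays of 1 group correlated at 0.976 to 0.996. Precision here is set by there being 5 arrays a group. In wild-type cells Dusp5 averaged 8.15 ± 0.26 (SD, n = 5) without IL-33 and 9.77 ± 0.35 with it, against 4.40 ± 0.31 and 4.95 ± 0.18 in knockout cells. Of the eosinophil markers, Prg2 (13.76 to 13.82) and Epx (13.26 to 13.52), both granule proteins, were bright in all group means, and Siglecf lay between 9.75 and 10.61. Cpa3 of mast cells and basophils (12.55 to 12.71) and Adgre1 of macrophages and eosinophils (11.37 to 12.38) were bright too. So were Ngp of neutrophils (11.34 to 11.90), Mcpt8 of basophils (11.32 to 11.79) and Pf4 of megakaryocytes (11.33 to 11.46). Other markers of these lists were dimmer, among them Elane of neutrophils (5.62 to 5.86) and Tpsb2 of mast cells (3.84 to 3.99). Ms4a1 of B cells stayed between 1.82 and 2.02.

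A cytoplasmic ribosome holds a single copy of nearly every ribosomal protein, and cells make these proteins in matched amounts from messages that are among the most abundant and longest lived. Their messages begin with a run of pyrimidines directly at the start, the 5′ TOP motif, through which the kinase mTORC1 and the binding protein Larp1 set how well they are translated, so that ribosomal protein synthesis can change at a constant message level. New ribosomes also need ribosomal RNA and many assembly factors made in the nucleolus, a programme known to follow Myc.

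The first bases of the genes that the results turn on are shown for this motif, in windows from 5 bases before to 25 bases after the annotated start (RefSeq, build GRCm38.p6, 5′ to 3′ on the transcribed strand). Capitals mark a run of at least 7 C or T anywhere in the window, and lower case marks the rest. Such a run need not lie directly at the start, as a TOP motif does. First come Rpl14, which fell in both genotypes, then Rpl13a and Rpl11, which fell in knockout cells, and Rplp2, the brightest member.
Rpl14, chr9:120571512-120571541 (+): TCTCTCTTCTCgctgagcgccgccaacatg
Rpl13a, chr7:45128721-45128750 (-): gacaagaCCTCCTCCTTTCCCaggcggctg
Rpl11, chr4:136053369-136053398 (-): aggccacggggccggaagTCTCCCTCTCTC
Rplp2, chr7:141447646-141447675 (+): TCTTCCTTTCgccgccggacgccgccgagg
The windows of Rps3, which fell in both genotypes, and of Rpl7l1 and Rps19bp1, which rose, held no such run.
Rps3, chr7:99483685-99483714 (-): tcgccgcgctgcgcggcgtcattgctcccg
Rpl7l1, chr17:46782632-46782661 (-): gcaagcgcagtagctgaagcaccggaaaga
Rps19bp1, chr15:80264282-80264311 (-): gtagctcgccgcgtgtgggcggggctcgga

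A promoter was listed for 36 of the 41 genes, and 18 of them (50%) held a run of 7 or more C or T in at least 1 such window, against 5057 of 27025 genes (18.7%) in the table. The letters CCGGAA on either strand, the core bound by Ets factors, stood in the 300 bases around the start (250 before, 50 after) of 24 of the 36 (66.7%), against 16.7% of all genes. A match is only a description of these letters. The start used in these cells can differ from the annotated one, so a window without a run says only that these letters are not in it.

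The levels fell into a bright, tight set and a spread-out rest. Of the 34 tested genes, 17 had a mean of at least 12 over the 20 arrays, from Rpl22l1 at 12.07 to Rplp2, an acidic stalk protein that contacts elongation factors, at 13.74. The highest value in the whole table was 13.99, so these probe sets lay near the top of the scale. Their whole range over 20 arrays had a median of 0.170, and their pooled SD within groups a median of 0.034. For all 102 tested genes as bright the medians were 0.473 and 0.094, and for all 11766 tested genes 0.826 and 0.166. Rplp2 had the narrowest range of the 41: its lowest and highest arrays were 13.72 and 13.78. Rps29 ranged from 13.62 to 13.73, Rpl38 from 13.59 to 13.66 and Rplp0, the base of the stalk and a common reference gene, from 13.44 to 13.59. In all, 10 of the 34 stayed within 0.2 log2 units on all 20 arrays, whatever the genotype or treatment. Whether the signal of such bright probe sets is compressed was not tested.

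The other 17 tested genes averaged 3.93 (Rps20) to 11.15 (Rps27l), with a median range of 0.766 and a median pooled SD of 0.169, close to the medians of all tested genes. Rps6, the small-subunit protein phosphorylated by the S6 kinases, lay at 4.78 and its lowest and highest arrays at 4.39 and 5.12. The 7 genes that were not tested averaged 2.04 to 3.48 and were Rpl27a, Rpl35, Rpl3l, Rps10, Rps16, Rps18 and Rps24. Of these, Rps10 exceeded the array's 40th percentile (3.56 to 3.68) on 4 arrays and the others on none. Brightness differs between probe sets for reasons of their own, so a dim value does not order these genes by their message.

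**Figure D1:**
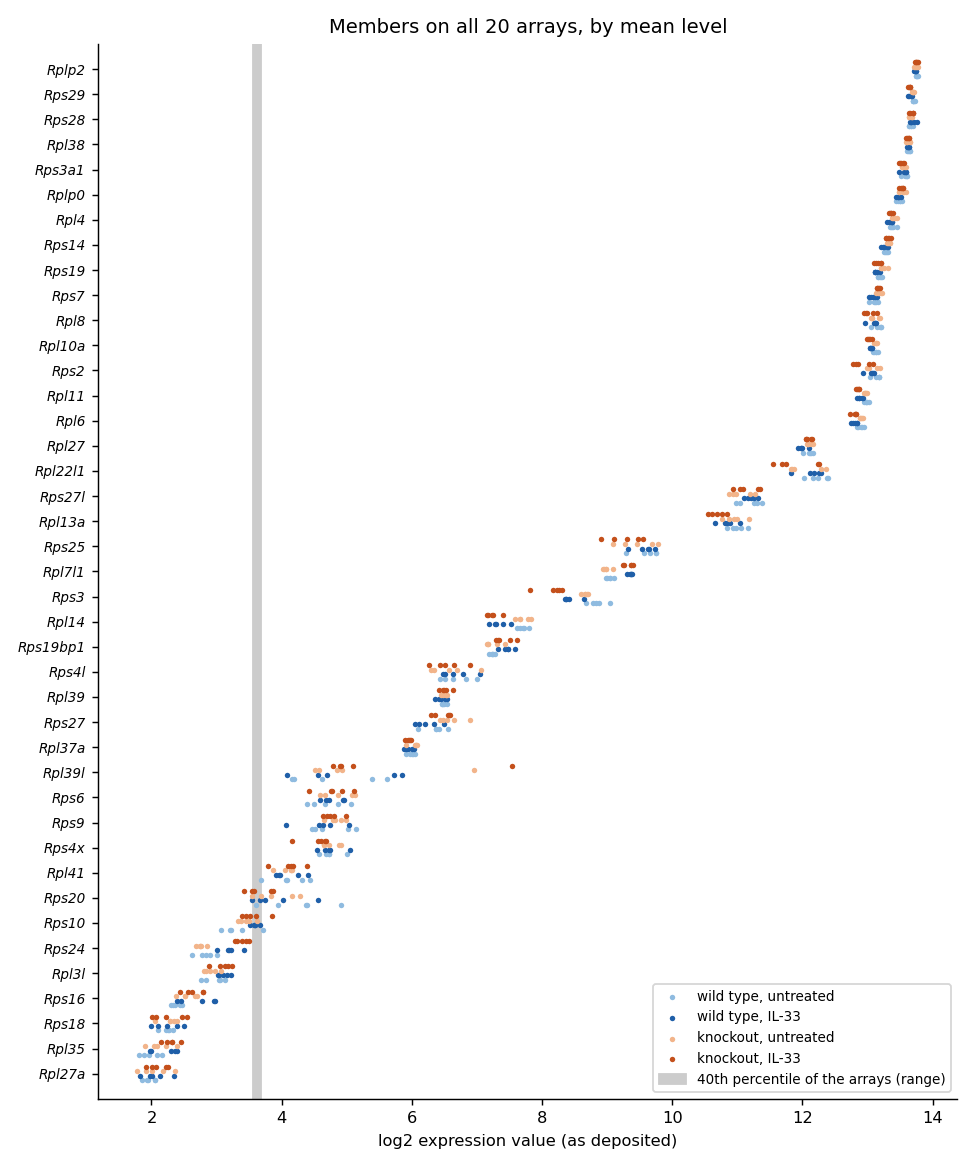
The log2 value of each of the 41 genes on all 20 arrays, ordered by mean level, with points coloured by genotype and treatment and a grey band for the range of the arrays' 40th percentiles. A reader should see 17 genes packed above 12, with Rplp2 between 13.72 and 13.78, and Rpl39l spread from 4.08 to 7.53.

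IL-33 was first compared with medium alone in wild-type cells. Few ribosomal protein messages passed the test: of 34, Rpl7l1 and Rps19bp1 rose and Rps3 and Rpl14 fell, and the median difference was -0.040. In the same limma fit 42.7% of all 11766 tested genes passed (16.1% higher, 26.7% lower), with a median difference of -0.052. The share of the 34 that passed was 11.8%. The median size of the difference, whatever its sign, was 0.060 for the 34 and 0.223 for all tested genes. None of the 17 bright genes passed, beside 23.5% of all genes as bright (a background added after the levels were seen), and their differences ran from -0.111 to 0.030. Their 95% confidence intervals, one for each gene, lay between -0.41 and 0.19 in all, with both ends set by Rpl22l1. In this fit the SE draws on 1 prior spread for all genes, which is wide for bright genes with little spread. In a fit where the spread may change with level, added after seeing the data, Rpl11 and Rpl27 of the bright genes fell. There 42.8% of all tested genes passed, and the share of all genes as bright is not given.

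Rps3, a small-subunit protein at the mRNA entry site, was at 8.82, 8.67, 9.04, 8.79 and 8.87 on the 5 untreated wild-type arrays and at 8.37, 8.35, 8.64, 8.36 and 8.42 after IL-33. Every IL-33 array lay below every untreated one. The difference was -0.41 ± 0.088 (adjusted p = 7.79e-04), so that its level fell by 24.8%.
Rpl14, a large-subunit protein, was at 7.80, 7.62, 7.66, 7.70 and 7.72 untreated and at 7.40, 7.52, 7.29, 7.27 and 7.18 after IL-33, again without overlap. The limma difference was -0.37 ± 0.071 (adjusted p = 2.88e-04).
Rpl7l1, a paralogue of Rpl7, was at 9.05, 8.99, 9.11, 9.0 and 9.04 untreated and at 9.39, 9.34, 9.31, 9.36 and 9.37 after IL-33. All treated arrays were higher than all untreated ones, with a difference of 0.32 ± 0.052 (limma adjusted p = 5.45e-05), or 24.5% more.
Rps19bp1 was at 7.28, 7.18, 7.23, 7.23 and 7.25 untreated and at 7.58, 7.48, 7.32, 7.43 and 7.48 after IL-33. These groups did not overlap either, and the difference was 0.22 ± 0.073 (limma adjusted p = 0.0179).
The genes that rose were thus a paralogue and a protein outside the ribosome: among the 28 tested structural proteins, none rose and 2 fell. Both that fell, Rps3 (mean 8.52 over 20 arrays) and Rpl14 (7.49), lay below the bright set, and each was read by 1 probe set. How well these probe sets report the whole message of their gene was not tested.

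In knockout cells IL-33 gave the same 2 falls, Rps3 and Rpl14, with those of Rpl13a and Rpl11, and a rise of Rpl7l1. That made 1 higher and 4 lower of 34 (14.7%), against 52.2% of all tested genes (18.9% higher, 33.2% lower). The median difference was -0.057, beside -0.077 for all tested genes, and the median size 0.087 beside 0.275. Of the 17 bright genes only Rpl11 passed, beside 36.3% of all genes as bright. In the fit where the spread may change with level, Rpl10a, Rpl11, Rpl6 and Rps2 of the bright genes fell. There 52.4% of all tested genes, bright or not, passed, and the share of all genes as bright is not given.

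Rps3 was at 8.66, 8.60, 8.67, 8.70 and 8.69 on the untreated knockout arrays and at 8.17, 8.26, 7.81, 8.30 and 8.24 after IL-33, a difference of -0.51 ± 0.088 (limma adjusted p = 6.44e-05), so that its level fell by 29.8%. The array at 7.81 stood apart from the other 4, all of which were still below every untreated array.
Rpl14 was at 7.79, 7.59, 7.82, 7.66 and 7.65 untreated and at 7.23, 7.24, 7.16, 7.39 and 7.17 after IL-33, a difference of -0.46 ± 0.071 (limma adjusted p = 1.67e-05).
Rpl7l1 was at 9.08, 8.96, 8.94, 8.98 and 8.98 untreated and at 9.39, 9.25, 9.37, 9.26 and 9.37 after IL-33, a difference of 0.34 ± 0.052 (limma adjusted p = 1.43e-05). For both genes the treated and untreated groups did not overlap.
Rpl13a, a large-subunit protein also known from a complex that silences translation of inflammatory messages, was at 10.99, 10.76, 11.17, 10.95 and 10.87 untreated and at 10.77, 10.62, 10.84, 10.68 and 10.55 after IL-33. These groups overlapped, since mice differed in level, and the difference was -0.26 ± 0.087 (limma adjusted p = 0.0168). Without the untreated array of knockout mouse 3 it was -0.20 and missed the threshold (adjusted p = 0.0578).
Rpl11, which carries the 5S RNA into the large subunit and restrains Mdm2 when assembly fails, was at 12.95, 12.95, 12.96, 12.97 and 12.99 untreated and at 12.86, 12.87, 12.85, 12.84 and 12.82 after IL-33. The groups did not overlap, but the difference of -0.118 ± 0.045 (limma adjusted p = 0.0317) meant that its level fell by 7.85%. It missed the threshold without either array of knockout mouse 4 or of knockout mouse 5 (adjusted p up to 0.0635).
Rps19bp1, called in wild-type cells, differed here by 0.17 ± 0.073 (limma adjusted p = 0.0535). It passed with 2 genes higher in all when the untreated array of knockout mouse 1, the IL-33 array of knockout mouse 2 or 4, or the IL-33 array of wild-type mouse 3 was left out.

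**Figure D2:**
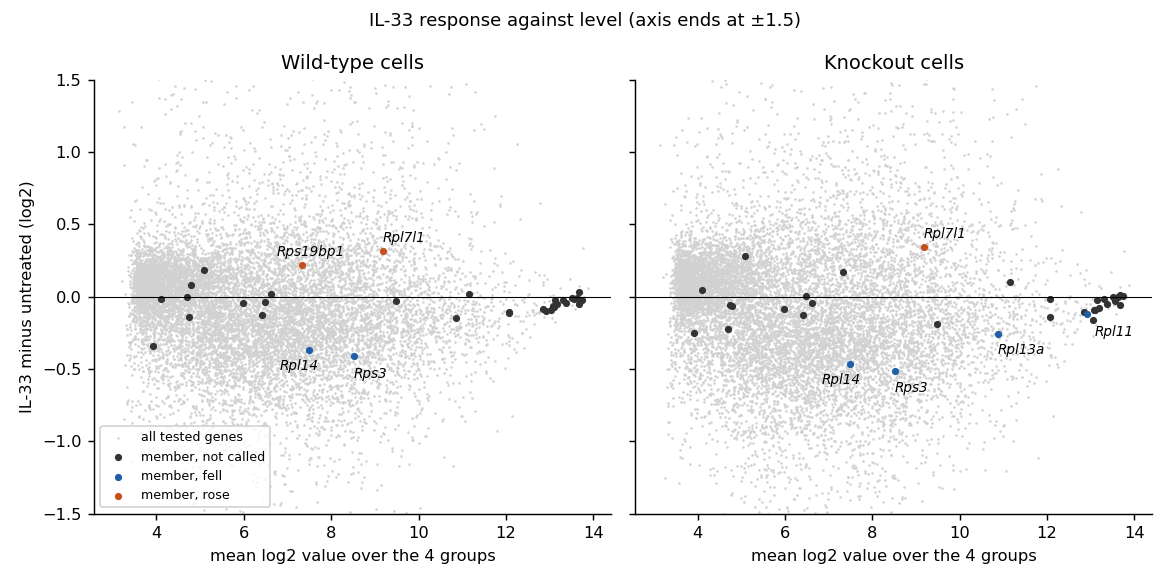
Difference after IL-33 (log2, vertical, axis ends at 1.5 and -1.5) against mean log2 level (horizontal) in wild-type (left) and knockout cells (right), with all tested genes in grey and the 34 ribosomal genes as larger points, blue where they fell and orange where they rose. A reader should see the bright members on the right lying just below 0, and Rps3 at -0.41 and -0.51 apart from them.

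The subunits are given side by side, and the difference between them was not tested. Of all tested genes, 16.1% rose and 26.7% fell in wild-type cells, with a median difference of -0.052. In knockout cells 18.9% of all rose and 33.2% fell, with a median of -0.077. Of 16 tested small-subunit genes, 1 (Rps3) fell and none rose in each genotype, with medians of -0.026 in wild-type and -0.062 in knockout cells. Of 17 tested large-subunit genes, 1 rose and 1 fell in wild-type and 1 rose and 3 fell in knockout cells, with medians of -0.043 and -0.050. The stalk genes gave small differences: Rplp0 -0.012 ± 0.046 in wild-type and -0.0041 ± 0.046 in knockout cells, and Rplp2 -0.023 ± 0.043 and 0.0070 ± 0.043. The signs of both in knockout cells turned under another scaling. Rps6 differed by 0.081 ± 0.14 and -0.066 ± 0.14, with its direction in knockout cells turning when 1 array was left out. Genes whose loss causes Diamond-Blackfan anaemia, an inherited failure of red cell formation, make a list of 19, of which 10 were in the table and 7 tested. None of the 7 passed in wild-type cells and Rpl11 alone fell in knockout cells. Rps19, the gene of that list most often mutated, differed by -0.047 ± 0.048 and -0.078 ± 0.048.

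Within mice the small differences mostly pointed down. In wild-type and in knockout cells, 26 of 34 differences were below 0, beside 56.4% and 57.3% of all tested genes. This lean was not larger in size than elsewhere: the medians of the 17 bright genes were -0.047 and -0.050, beside -0.056 and -0.078 for all genes as bright. Across the 10 mice, 9 genes were lower after IL-33 in every mouse (Rpl10a, Rpl11, Rpl14, Rpl4, Rpl8, Rps2, Rps29, Rps3 and Rps3a1), beside 33.1% of all tested genes. Of the 17 bright genes 7 did so, beside 45.1% of all genes as bright. Higher in every mouse were 2 genes, Rpl7l1 and Rps19bp1, beside 15.5%. Treated and untreated arrays did not overlap for 7 of 34 genes in wild-type cells, beside 28.3% of all tested genes, and for 7 in knockout cells, beside 38.5%.

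Rps29, a zinc-binding small-subunit protein, shows how small a separated difference can be. It was at 13.70, 13.69, 13.73, 13.72 and 13.70 in untreated wild-type cells and at 13.68, 13.62, 13.67, 13.66 and 13.64 after IL-33. In knockout cells it was at 13.70, 13.71, 13.70, 13.69 and 13.69 untreated and at 13.64, 13.66, 13.65, 13.62 and 13.65 after IL-33. The groups did not overlap in either genotype, and yet the differences were -0.052 ± 0.043 and -0.058 ± 0.043 and did not pass (limma adjusted p = 0.345 and 0.268). Its pooled SD was 0.015, the lowest of the 41, while limma's SE draws on 1 prior spread for all genes.

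Since the replicate number was taken to mark the mouse, the comparison within mice was fitted too, and it moved these counts. With the mouse as a random block, 2 genes rose and 6 fell in wild-type cells (56.9% of all tested genes passed, 21.7% higher and 35.2% lower), the falls being Rpl11, Rpl13a, Rpl14, Rpl27, Rps20 and Rps3. In knockout cells 2 rose and 8 fell (65.4%; 24.8% higher, 40.7% lower), namely Rpl10a, Rpl11, Rpl13a, Rpl14, Rpl6, Rps2, Rps3 and Rps4x. With the mouse as a fixed block, 2 rose and 4 fell in wild-type cells (57.8%; 20.8% higher, 37.0% lower), and 3 rose and 8 fell in knockout cells (65.5%; 23.5% higher, 42.0% lower). A fit in which the spread may change with level, added after seeing the data, called 2 rises and 4 falls in wild-type cells (42.8%) and 1 rise and 7 falls in knockout cells (52.4%). Rps3, Rpl14 and Rpl7l1 passed in all these fits in both genotypes, and Rps19bp1 rose in knockout cells in both block fits (adjusted p = 0.0119 with the random block).

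**Figure D3:**
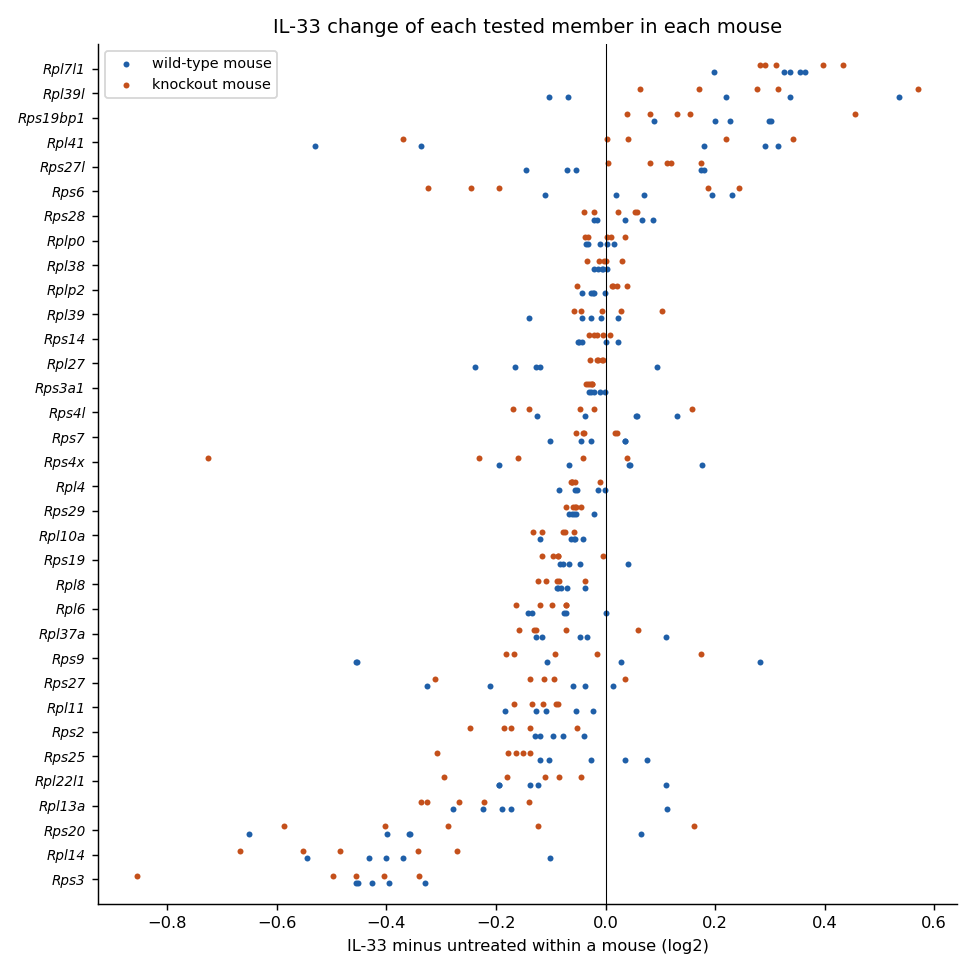
Difference after IL-33 within each of the 10 mice (log2, horizontal, blue wild type, orange knockout) for the 34 tested genes. They are ordered by the median of their 10 differences. A reader should see that all 10 points of Rps3 and Rpl14 lie below 0 and all 10 of Rpl7l1 and Rps19bp1 above it, and that most other genes stay near 0.

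The genes with and without a pyrimidine run in at least 1 such window can be set side by side. The run counted wherever it lay in the window (in Rpl11 it begins at base 14), so the split is not one by TOP motif. The counts are to be read against all tested genes. Of these, 16.1% rose and 26.7% fell in wild-type cells (median -0.052), and 18.9% rose and 33.2% fell in knockout cells (median -0.077). Of 13 tested genes with a run, none rose and 1 fell in wild-type cells (median -0.067), and none rose and 3 fell in knockout cells (median -0.078). Of 16 tested genes without one, 2 rose and 1 fell in wild-type cells (median -0.019), and 1 rose and 1 fell in knockout cells (median -0.024). The difference between these sets was not tested.

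The dim genes gave one pattern that the filter on low values kept from the test. Rps24, a small-subunit protein, was at 2.63, 2.85, 2.77, 3.01 and 2.91 in untreated wild-type cells and at 3.19, 3.42, 3.17, 3.22 and 3.00 after IL-33. In knockout cells it was at 2.74, 2.76, 2.74, 2.69 and 2.86 untreated and at 3.49, 3.32, 3.45, 3.28 and 3.39 after IL-33, without overlap. With no filter on dim genes, limma gave it a difference of 0.37 (adjusted p = 0.0013) and 0.63 (adjusted p = 2.03e-06), but all 20 values lay under the array's 40th percentile. In the same fit Rps16 differed by 0.33 in wild-type cells (adjusted p = 0.0228), from a mean of 2.38 to 2.71, and did not pass in knockout cells.

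The second question was whether loss of Dusp5 moves these messages. None of the 34 passed in untreated cells, where 0.0255% of all tested genes did (3 genes), and the median difference of knockout minus wild type was -8e-04. At an unadjusted p under 0.05 the limma fit gave 1 of the 34 and 1517 of all tested genes, and neither the random block nor a variance trend with level called any of the 34. That gene was Rps27, a zinc-binding small-subunit protein, at 6.42, 6.56, 6.09, 6.37 and 6.37 in wild-type and at 6.43, 6.54, 6.47, 6.89 and 6.65 in knockout cells. The groups overlapped, and the difference was 0.23 ± 0.10 (limma adjusted p = 0.383).

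After IL-33 again none of the 34 passed, beside 2.21% of all tested genes (260, of which 144 were lower, against 72 of 223 with quantile normalization and 68 of 161 with median centring). At an unadjusted p under 0.05 there were 3 of the 34 and 2836 of all, and the random block called none of the 34 beside 4.37% of all, as did the fit with a variance trend beside 2.46%. The median difference was -0.013, beside -0.030 for all tested genes. Rps3 had the smallest adjusted p of the 34, with a difference of -0.27 ± 0.088 (limma adjusted p = 0.0854), and its highest knockout array (8.30) lay below its lowest wild-type array (8.35). Without the IL-33 array of wild-type mouse 2 it passed (-0.29, adjusted p = 0.0439). The other two were Rps25 (-0.31 ± 0.14, limma adjusted p = 0.173) and Rps27 (0.23 ± 0.10, limma adjusted p = 0.180). For the 17 bright genes the differences ran from -0.239 to 0.101, and their 95% confidence intervals lay between -0.54 and 0.21 in all. A p above the threshold does not show that the genotypes have the same level.

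The response to IL-33 itself was compared between the genotypes by the interaction. None of the 34 and none of all tested genes passed (0.0%). At an unadjusted p under 0.05 there were none of the 34 and 568 of all, and with the random block 26 of all (0.221%) and none of the 34. The interaction was -0.099 ± 0.12 for Rps3 (95% interval -0.36 to 0.16), -0.094 ± 0.10 for Rpl14 (-0.30 to 0.11), -0.11 ± 0.12 for Rpl13a (-0.36 to 0.15), -0.019 ± 0.063 for Rpl11 (-0.15 to 0.11) and 0.027 ± 0.073 for Rpl7l1 (-0.13 to 0.18). That Rpl11 and Rpl13a passed in knockout cells and not in wild-type cells is therefore no shown difference between the genotypes.

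Some of these genes differed widely between mice of 1 group. A mouse, its culture and the handling of its arrays cannot be told apart here. Over all tested genes the arrays of a mouse correlated at 0.464 in the random block fit, a value that does not measure how wide the spread is. The pooled SD within groups was 0.930 for Rpl39l and 0.229 for Rps25, against a median of 0.166 for all tested genes. It was 0.242 for Rpl22l1 and 0.094 for Rps2, against a median of 0.094 for all genes as bright. Rpl39l, a paralogue of Rpl39 known from the testis, was at 4.19, 5.39, 4.16, 5.62 and 4.62 in untreated wild-type cells of mice 1 to 5 and at 4.08, 5.72, 4.70, 5.84 and 4.55 after IL-33. In knockout cells it was at 4.85, 6.96, 4.58, 4.52 and 4.92 untreated and at 4.91, 7.53, 4.89, 4.79 and 5.09 after IL-33. Knockout mouse 2 was thus highest under both conditions, and wild-type mice 2 and 4 were above the other 3 of their genotype under both. The mean of the 2 arrays of a mouse ran from 4.13 to 7.25, while IL-33 differed from untreated by 0.18 ± 0.53 in wild-type and 0.28 ± 0.53 in knockout cells (limma adjusted p = 0.805 and 0.678). With the mouse as a fixed block the second passed (adjusted p = 0.0193), since all 5 knockout mice were higher after IL-33. Its parent Rpl39 ranged from 6.35 to 6.63 over all 20 arrays and differed by -0.039 ± 0.054 and 0.0043 ± 0.054, with signs that turned under other scalings.

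Rpl22l1, a paralogue of Rpl22, had the widest range of the bright genes, 0.854. It was at 12.37, 12.02, 12.17, 12.24 and 12.40 in untreated wild-type cells and at 12.17, 11.82, 12.28, 12.11 and 12.26 after IL-33. In knockout mice 1 to 5 it was at 12.28, 11.83, 12.36, 11.87 and 11.84 untreated and at 12.23, 11.74, 12.25, 11.69 and 11.54 after IL-33. Knockout mice 1 and 3 lay with the wild-type mice, while mice 2, 4 and 5 were at 11.87 or lower on both arrays, as wild-type mouse 2 was after IL-33. The differences with IL-33 were -0.11 ± 0.14 and -0.14 ± 0.14 (limma adjusted p = 0.572 and 0.419), and the second passed with the mouse as a fixed block (adjusted p = 0.0419).

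Rps25, a small-subunit protein that some viral and cellular messages need for initiation, fell into a like order of mice. The mean of a mouse's 2 arrays was 9.70, 9.31, 9.69, 9.70 and 9.55 in wild-type and 9.61, 9.19, 9.62, 9.38 and 9.0 in knockout mice. For Rps2, whose product lies at the mRNA channel, it was 13.14, 12.98, 13.12, 13.11 and 13.11 in wild-type and 13.11, 12.92, 13.10, 12.91 and 12.89 in knockout mice. The lowest wild-type mouse was mouse 2 for Rpl22l1, Rps25 and Rps2 alike, and the same 3 knockout mice were low for all. Other ribosomal genes split these mice the opposite way. In knockout mice 2, 4 and 5 Rps27 was at 6.56, 6.73 and 6.60 against 6.36 and 6.42 in mice 1 and 3. Rplp0 was at 13.54, 13.54 and 13.57 against 13.49 and 13.48, and Rps6, Rps14 and Rpl39 were higher too. The mean level of 8 proliferation genes was 9.48, 8.41, 9.99, 9.25 and 9.71 in wild-type mice 1 to 5. In knockout mice 1 to 5 it was 9.28, 8.18, 8.69, 8.21 and 8.56. It was thus lowest in wild-type mouse 2 among the wild-type mice and higher in knockout mice 1 and 3 than in the other 3. Other markers split the mice too. The mean level of 6 monocyte, macrophage and dendritic cell markers was 9.53 in wild-type mouse 2 against 9.06 to 9.25 in the other wild-type mice, and 9.46, 9.48 and 9.58 in knockout mice 2, 4 and 5 against 9.15 and 9.04 in mice 1 and 3. In the same knockout mice 2, 4 and 5 the mean of 7 neutrophil markers was 8.04, 8.16 and 8.52 against 7.70 and 7.82, and that of 5 eosinophil markers 10.85, 10.93 and 10.87 against 10.68 and 10.61. In wild-type mouse 2 these were 7.80 and 10.80, inside the range of the other wild-type mice. The mean of 6 stem and progenitor markers was 6.20, 6.27 and 6.42 in knockout mice 2, 4 and 5 against 6.05 and 5.91. Mast cell and basophil markers (8.89, 8.95 and 9.02 against 8.81 and 8.93) did not separate these mice. Neither did 42 ribosome assembly genes (6.91, 6.96 and 7.07 against 7.12 and 7.05). The part of any of these cells in the levels of the ribosomal genes was not tested, and in bulk RNA fewer cells of a type and less RNA per cell cannot be told apart.

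**Figure D4:**
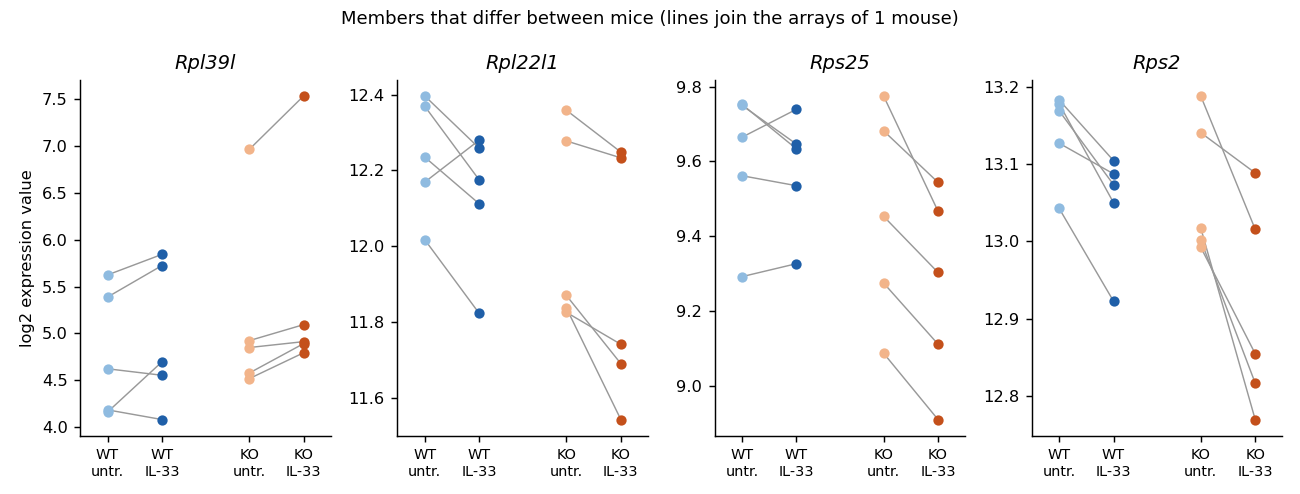
Log2 values of Rpl39l, Rpl22l1, Rps25 and Rps2 on all 20 arrays, with a line joining the untreated and the IL-33 array of each mouse (blue wild type, orange knockout; WT wild type, KO knockout, each panel with its own axis). A reader should see Rpl39l of 1 knockout mouse at 6.96 and 7.53, and for the other genes 3 knockout mice below the other 2.

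Rps27l, a paralogue of Rps27 and a target of p53, averaged 11.19 ± 0.17 and 11.21 ± 0.08 in wild-type cells without and with IL-33 and 11.05 ± 0.18 and 11.15 ± 0.18 in knockout cells (SD, n = 5 each). The differences were 0.017 ± 0.099, whose sign turned with median centring, and 0.099 ± 0.099. Its parent Rps27 differed with IL-33 by -0.12 ± 0.10 in each genotype, a sign that turned in knockout cells with quantile normalization. Rps4l, a paralogue of Rps4x, differed by 0.016 ± 0.15 and -0.044 ± 0.15, and Rps4x itself by 6e-04 ± 0.11 and -0.22 ± 0.11 (limma adjusted p = 0.0911 in knockout cells). Of the 5 tested paralogues, Rpl7l1 alone passed, in both genotypes. Of 11 tested p53 and ribosomal stress genes, 4 rose and 3 fell in wild-type cells (63.6%, against 42.7% of all tested genes) and 4 rose and 4 fell in knockout cells (72.7%, against 52.2%). Among these the cell cycle inhibitor Cdkn1a rose by 1.03 and 1.47, while Bbc3, which promotes cell death, fell by 1.05 and 1.18 on the log2 scale.

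Cell type and cycle markers moved with IL-33 as well, and their counts stand against the 42.7% and 52.2% of all tested genes that passed in wild-type and knockout cells. Of 6 stem and progenitor markers, 3 fell in wild-type cells (Hoxa9, Sox4 and Erg) and 4 in knockout cells. Their mean level ran from 6.57 to 7.04 on untreated and from 5.92 to 6.31 on IL-33 arrays of wild-type cells, and from 6.33 to 6.84 and from 5.49 to 6.0 in knockout cells. Of 8 proliferation genes, Mcm2 and Pcna fell in both genotypes, and their mean level ran from 8.68 to 10.21 untreated and from 8.14 to 9.77 after IL-33 in wild-type cells, and from 8.47 to 9.52 and from 7.89 to 9.04 in knockout cells. Of 5 eosinophil markers, Siglecf and Il5ra fell in both. Of 6 monocyte, macrophage and dendritic cell markers, Csf1r (0.62 and 0.54) and Adgre1 (0.70 and 0.66) rose in both, and Cd68 fell in knockout cells. Their mean level ran from 8.92 to 9.47 untreated and from 9.19 to 9.58 after IL-33 in wild-type cells, and from 9.02 to 9.55 and from 9.06 to 9.61 in knockout cells. Of 6 mast cell and basophil markers, Ms4a2 rose and Mcpt8 and Fcer1a fell in both genotypes, and Kit fell in knockout cells. None of 7 neutrophil markers passed. Of 2 tested lymphocyte markers Cd3e rose in wild-type cells, and of 3 tested erythroid and megakaryocyte markers Klf1 fell in knockout cells. The part of these cells in the differences of the ribosomal genes was not tested.

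The rest of the translation machinery gives the ribosomal proteins their setting, with lists whose makeup is not independent of earlier results of these data. The shares that passed are to be read against 42.7% of all tested genes in wild-type and 52.2% in knockout cells. Of 42 tested ribosome assembly genes, 23 rose and 4 fell in wild-type cells (64.3%, median 0.286), and 24 rose and 6 fell in knockout cells (71.4%, median 0.300). Rrs1, an assembly factor of the large subunit, rose by 0.91 ± 0.072 and 0.90 ± 0.072 (limma adjusted p = 3.59e-09 and 2.46e-09), and Utp4, of the small-subunit processome, by 0.64 and 0.70. Polr1a, the largest subunit of RNA polymerase I, fell by 0.44 and 0.33 on the log2 scale, and nucleolin (Ncl) by 0.34 and 0.36. Myc, the transcription factor linked to this programme, rose by 1.10 and 1.22, among 11 tested genes of its network of which 1 rose and 5 fell in wild-type (54.5%) and 3 rose and 5 fell in knockout cells (72.7%).

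Initiation factors went both ways. Of 21 tested, 5 rose and 2 fell in wild-type (33.3%) and 6 rose and 4 fell in knockout cells (47.6%), with medians of 0.025 and 0.067. The cap-binding protein Eif4e rose by 0.56 and 0.65 and the helicase Eif4a1 by 0.35 and 0.48. Eif6, which keeps free large subunits from joining, rose by 0.36 and 0.44. Eif3c fell by 0.28 and 0.43. After IL-33, Eif2b4 (-0.37 ± 0.094) and Eif3c (-0.28 ± 0.073) were lower in knockout than in wild-type cells, close to the threshold (limma adjusted p = 0.0480 and 0.0483). The calls of that comparison over all genes ran from 33 without the IL-33 array of wild-type mouse 5 to 1659 without that of wild-type mouse 2.

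Of 18 tested genes of the mTORC1 and S6 kinase pathway, 3 rose and 9 fell in wild-type (66.7%) and 3 rose and 11 fell in knockout cells (77.8%). Those that fell include Pdcd4, an inhibitor of Eif4a (-1.34 ± 0.14 and -1.56 ± 0.14), Eef2k, the kinase that slows elongation (-1.12 and -1.32), Eif4ebp2, a repressor of Eif4e (-0.71 and -0.89), and Tsc1 and Tsc2, which restrain mTORC1. Those that rose were Rheb, its activator (0.33 and 0.50), Larp1 (0.32 and 0.43) and Eif4ebp1, a repressor of Eif4e (0.24 and 0.19). The list thus holds both activators and inhibitors, and its median (-0.316 and -0.440) has no direction of activity.

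Closest to the ribosomal proteins in kind were 13 tested non-ribosomal messages with a TOP motif, of which 1 rose and 3 fell in wild-type (30.8%) and 1 rose and 7 fell in knockout cells (61.5%), with medians of -0.131 and -0.159. Hnrnpa1, a splicing factor, fell by 0.82 and 0.78 and Eif4b by 0.25 and 0.35, while Pabpc1, the poly(A)-binding protein, rose by 0.34 and 0.49. Eef1a1, the elongation factor, differed by 0.0076 ± 0.043 and 0.014 ± 0.043. Of 73 tested mitochondrial ribosomal proteins, 7 rose and 24 fell in wild-type cells (42.5%, median -0.119) and 5 rose and 33 fell in knockout cells (52.1%, median -0.194), shares near those of all tested genes. Among them Mrps35 fell by 0.84 and 1.03, while Mrpl45 rose by 0.63 and 0.48. Fau, a small-subunit protein outside the naming rule, differed by -0.054 ± 0.045 in each genotype (limma adjusted p = 0.355 and 0.326). Between the genotypes in untreated cells no gene of these lists passed.

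**Figure D5:**
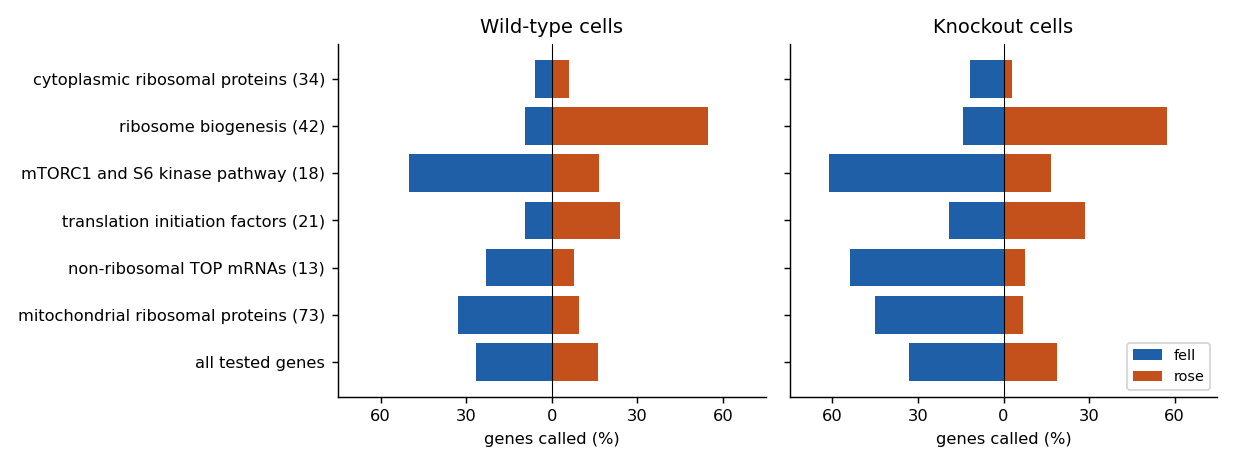
Share of each list's tested genes (number in brackets) that fell (blue, leftward) or rose (orange, rightward) after IL-33, in percent, in wild-type (left) and knockout cells (right), with all tested genes at the bottom. A reader should see short bars for the cytoplasmic ribosomal proteins (2 and 2 of 34 in wild-type cells) and a long one to the right for ribosome biogenesis (23 of 42).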

How the data were processed

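The deposited table holds log2 values of 20630 probe sets on 20 one-colour Affymetrix arrays, for which total RNA was made into biotin-labelled cRNA with the 3′ IVT Express kit, per the labels. The log2 unit was read from the values (1.27 to 13.99), while the sources used here give no background correction, summarization or normalization. Names came from the platform annotation: 17826 probe sets had 1 symbol, 91 several, 2711 none and 2 were controls; 17675 matched RefSeq (GRCm38.p6) by gene number. Of 54 genes with several probe sets the brightest was used.

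A gene was tested if it exceeded the array's 40th percentile on at least 5 arrays, which left 11766. All 20 arrays entered 1 fit with a mean per group (limma 3.58.1, R 4.3.3, 16 residual df, checked on simulated data). Adjusted p is Benjamini-Hochberg over all 11766 genes, and a gene rose or fell at an adjusted p under 0.05.

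Members and lists were chosen with earlier results of these data known. Named were the 10 largest rises and falls per comparison, the stalk genes, Rps6, Rps19, Rpl11, the paralogues and their parents, and up to 4 called genes per list. Others, among them Rps2, Rps4x, Rps4l, Rps16, Rps24, Rps25, Rps29 and further genes of the lists, were chosen after their values were seen.

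Replicate numbers are shared between groups, and the series text names 5 mice per genotype. Untreated and IL-33 arrays of a number correlated at 0.262 to 0.783 in their deviations from the group means and each of the 10 correlated best with the array of its number. A number was therefore taken to stand for a mouse within its genotype. These correlations were made within a genotype only, so culture or handling shared by a number across genotypes was not tested. It was added as a random block (correlation 0.464) or fixed block. Quantile normalization, median centring, other filters, fewer groups, probe set means, structural proteins alone and each array left out were also tried. A variance trend with level was added after seeing the data.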

Additional observations from a re-analysis of the deposited data

Results flagged for a closer look

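Of 60 groups of 5 arrays checked, 5 held an array far from the other 4 (a gap of over 0.71 of the group's range), and chance gives about 1 in 20. Rpl39l of knockout mouse 2 was highest both untreated, at 6.96 against 4.52 to 4.92 for the other 4, and after IL-33, at 7.53 against 4.79 to 5.09. Rpl7l1 of knockout mouse 1 was highest among untreated knockout arrays at 9.08, against 8.98 for the next. Rps3 of wild-type mouse 3 was highest after IL-33 at 8.64, against 8.42 for the next. Rps3 of knockout mouse 3 was lowest after IL-33 at 7.81, against 8.17 for the next, and the fall of Rps3 in knockout cells was -0.42 or lower with any array left out.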

How the results depend on the processing

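Rps3, Rpl14 and Rpl7l1 kept their direction and passed under every alternative in both genotypes, and Rps19bp1 did so in wild-type cells. In wild-type cells 4 genes fell with quantile normalization, median centring, the fixed block and the variance trend, and 6 with the random block. Of all tested genes, 3137 fell in the main fit, 2616 with quantile normalization and 3357 with median centring. With the fixed block 4356 of all fell, with the variance trend 3157 and with the random block 4140. In the same cells 4 ribosomal genes rose with no filter on dim genes (Rps16 and Rps24 were added) and 0 among structural proteins alone. Their median with median centring was -0.0654. Of all tested genes in wild-type cells, 1890 rose in the main fit and 1987 with no filter. Rpl11 fell there under quantile normalization, median centring, the 60th percentile filter, the random block and the variance trend. In knockout cells 3 rose with quantile normalization and the fixed block, and 2 with no filter, the 60th percentile filter and the random block. Among structural proteins alone 0 rose. Of all tested genes, 2228 rose in the main fit, 2675 with quantile normalization and 2761 with the fixed block. With no filter 2505 of all rose, with the 60th percentile filter 1775 and with the random block 2913. Of the ribosomal genes in knockout cells, 7 fell with the 60th percentile filter and the variance trend and 8 with either block. Their median was -0.030 with quantile normalization and -0.0289 with no filter. Of all tested genes, 3909 fell in the main fit, 3604 with the 60th percentile filter and 3937 with the variance trend. With the fixed block 4942 of all fell and with the random block 4785. The filters change how many genes are tested, so these counts are not shares. Rpl11 in knockout cells missed the threshold with no filter (adjusted p = 0.0684) and with only the compared groups (0.0793).

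Some signs of differences that did not pass turned. In wild-type cells these were Rpl39 (0.0764, quantile normalization) and Rps27l (-0.0084, median centring). In knockout cells they were Rpl39 (-0.0122) and Rplp2 (-0.0095) with median centring, and Rplp0 (0.0177), Rplp2 (-0.0851) and Rps27 (0.0323) with quantile normalization. With each array left out, the range was -0.0319 to 0.4083 for Rpl39l and -0.0359 to 0.0646 for Rps27l in wild-type cells. In knockout cells it was -0.0264 to 0.0263 for Rpl39, -0.2426 to 0.728 for Rpl39l, -0.0172 to 0.0107 for Rplp0, -0.0003 to 0.0152 for Rplp2 and -0.1437 to 0.0277 for Rps6. The count of genes that rose in knockout cells ran from 1 to 2.

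Between genotypes after IL-33, leaving out arrays gave 0 to 1 fall among the 34 and 33 to 1659 calls among all genes. The calls among all genes numbered 161 with median centring, 152 with no filter, 444 with the 60th percentile filter, 24 with only the compared groups and 514 with the random block. For untreated cells leaving out arrays gave 3 to 15 calls among all genes, and for the interaction 0 to 3, against 26 with the random block. The cause of these shifts was not tested. The random block changed no count of the 34 between genotypes or in the interaction, all of which stayed at 0. Of these comparisons the fixed block can fit only the interaction, where the count was 0 too. Dim probe sets limit what can be said of Rps24, Rps16 and the other 5 untested genes.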
